A study of Arabidopsis thaliana with 18 samples.

Results

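A set of 9 Arabidopsis thaliana genes differed from the rest of the shoot apical meristem in both cell layers of the domain where miR165a is expressed. The genes were selected on the deposited tables themselves. TRI (AT2G29330), AT5G39020, AT2G18210, PUP7 (AT4G18197), HR4 (AT3G50480) and CYP71B22 (AT3G26200) were listed as higher in both miR165a populations than in each of the 4 other populations. AT5G43870, AT1G49475 and AT4G24050 were listed as lower in the same 8 contrasts. They are 9 of the 8444 genes that appear in any deposited table.

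All populations came from untreated ap1 cal meristems, a mutant background that forms masses of meristems and permits bulk harvest, so the mutation is shared by every group. The plants carried 3 fluorescent reporters: pAtML1::mTag-BFP-ER marks the epidermis, pmiR165a::GFP-ER marks cells with an active miR165a promoter, and pREV::REV-2YPET reports the REV protein from its own promoter. Protoplasts from about 4 to 5 week old plants were sorted into epidermal miR165a (BFP and GFP), epidermal REV (BFP and YFP), epidermal gap (BFP alone), sub-epidermal miR165a (GFP alone), sub-epidermal REV (YFP alone) and all negative cells (no reporter), with 3 libraries each and 18 in all. A population is thus defined by its fluorescence and not by its position in the meristem. The sorted cells were freed with cell wall enzymes, and no unsorted or undigested tissue enters these contrasts.

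Polarity of shoot organs rests on opposed regulators. REVOLUTA (REV) and the other class III HD-ZIP transcription factors promote adaxial fate and are kept out of the abaxial side and the periphery of the meristem by miR165 and miR166, small RNAs that direct the cleavage of their transcripts. KANADI and YABBY factors act on the abaxial side, and HD-ZIP III proteins activate the LITTLE ZIPPER (ZPR) genes.

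The sort was checked on its own markers. ATML1, the epidermal factor whose promoter drives BFP, ranged from 3257 to 3488 normalized counts in the 3 epidermal populations and from 61.1 to 85.7 in the others. REV stood at 2298 in epidermal REV cells and 2844 in sub-epidermal REV cells, against 1022 to 1288 elsewhere. MIR165A is in none of the tables, so the miR165a gate could not be checked here on its own transcript. The paper reports its own check of purity by Q-PCR of ML1, REV and GFP in the sorted cells. Of 9 class III HD-ZIP and ZPR genes, 5 were listed lower in the miR165a than in the REV cells of the epidermis and 8 below it, and 6 of 7 abaxial genes were listed higher in both layers. Of all genes tested, 17.3% were listed in either direction in the epidermis and 9.74% below it. Against gap cells, 2 of the 9 were listed lower and 2 of the 7 higher in epidermal miR165a cells (5.79% of all genes listed). Against all negative cells, 0 of the 9 and 1 of the 7 were so listed in sub-epidermal miR165a cells (2.07%). The abaxial sum (6 solved genes) was 1759 in epidermal miR165a, 892.7 in gap, 1900 in sub-epidermal miR165a and 1494 in all negative cells. It was 138.4 in epidermal and 136.0 in sub-epidermal REV cells. Vascular transcripts were unequal below the epidermis. PXY, a cambium receptor kinase, stood at 711.9 in sub-epidermal REV cells and 26.6 in all negative cells. SUC2, a phloem sucrose carrier, stood at 42.5 and 521.3 in the same order. Summed over 5 vascular genes, levels were 1334 and 863.0 in these populations and 94.6 to 131.8 in the other 4.

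Stretches of upstream sequence are shown for 6 of the genes whose levels are described next. Each of the 6 was shown with a motif that it holds, and matches to the other motifs are not marked. Each run is the 250 bases before the annotated gene start, written 5′ to 3′ on the gene's own strand and taken from the RefSeq assembly TAIR10.1. Capitals mark TTGAC on either strand (the core of the W-box, bound by WRKY factors) in the first 4 genes. In the fifth they mark AATNATT, a core bound by HD-ZIP proteins, and in the sixth GNATAA, a motif bound by KANADI1.
TRI (AT2G29330), chr2:12594286-12594535, plus strand: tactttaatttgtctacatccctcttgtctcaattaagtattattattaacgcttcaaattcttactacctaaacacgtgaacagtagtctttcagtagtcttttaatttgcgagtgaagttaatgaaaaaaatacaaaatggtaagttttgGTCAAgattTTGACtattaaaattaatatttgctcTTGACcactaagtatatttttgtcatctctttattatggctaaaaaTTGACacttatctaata
PUP7 (AT4G18197), chr4:10071231-10071480, plus strand: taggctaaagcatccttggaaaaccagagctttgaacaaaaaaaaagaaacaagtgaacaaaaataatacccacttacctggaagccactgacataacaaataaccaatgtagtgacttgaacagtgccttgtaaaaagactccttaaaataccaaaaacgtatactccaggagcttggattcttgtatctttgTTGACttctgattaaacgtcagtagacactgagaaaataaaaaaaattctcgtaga
HR4 (AT3G50480), chr3:18732771-18733020, plus strand: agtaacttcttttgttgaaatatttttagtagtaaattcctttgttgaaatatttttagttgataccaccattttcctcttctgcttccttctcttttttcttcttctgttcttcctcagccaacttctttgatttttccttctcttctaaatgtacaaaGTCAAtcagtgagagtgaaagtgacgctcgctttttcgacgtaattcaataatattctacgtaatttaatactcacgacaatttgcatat
CYP71B22 (AT3G26200), chr3:9588999-9589248, plus strand: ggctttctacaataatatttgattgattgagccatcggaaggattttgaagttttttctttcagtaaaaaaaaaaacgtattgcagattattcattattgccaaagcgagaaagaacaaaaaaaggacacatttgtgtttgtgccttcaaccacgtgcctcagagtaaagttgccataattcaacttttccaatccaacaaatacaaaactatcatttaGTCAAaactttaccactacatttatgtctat
AT2G18210, chr2:7925919-7926168, minus strand: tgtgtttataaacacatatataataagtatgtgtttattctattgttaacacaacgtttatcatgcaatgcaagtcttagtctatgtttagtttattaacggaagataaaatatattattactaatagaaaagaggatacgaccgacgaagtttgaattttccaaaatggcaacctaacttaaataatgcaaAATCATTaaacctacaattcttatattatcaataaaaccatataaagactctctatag
AT1G49475, chr1:18312633-18312882, plus strand: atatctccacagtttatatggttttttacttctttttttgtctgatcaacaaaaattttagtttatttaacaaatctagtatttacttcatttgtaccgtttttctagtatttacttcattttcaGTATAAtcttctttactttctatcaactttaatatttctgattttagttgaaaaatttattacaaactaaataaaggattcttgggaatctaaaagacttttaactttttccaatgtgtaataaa

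TTGAC was found in the windows of 4 of the 6 higher genes and 1 of the 3 lower genes, and in 44.9% of the windows of all 27443 protein-coding genes. TRI held 4 copies, whose first bases lie 98, 89, 63 and 17 bases before the start. AATNATT was found in 1 higher gene (AT2G18210) and 1 lower gene (AT4G24050), against 30.5% of all windows. GNATAA occurred in 2 higher and 2 lower genes, against 51.8% of all windows. The auxin response element TGTCTC occurred in TRI alone among the 9, and in 10.9% of all windows. GNATAA and the other motifs were searched on both strands, and these matches describe letters and not bound sites. Of the genes not shown, AT5G39020 and AT5G43870 held none of these motifs, and AT4G24050 held all but TGTCTC.

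Levels in each population are given first for the genes that were higher in the miR165a domain. The files hold fold changes between populations and a mean count, without values for single libraries. The level of each population was therefore solved from these, in normalized counts (reads scaled to a common library size), with a 95% interval from the deposited standard errors. Since all 8 contrasts of a miR165a population with the others chose the genes, that part of the levels is a description without a test. In sorted bulk cells, fewer cells with a transcript and less transcript per cell cannot be told apart.

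TRI encodes a protein annotated as a tropinone reductase, a short-chain dehydrogenase. Its level was 153.3 (95% interval 102.1 to 230.1) in epidermal and 120.7 (80.4 to 181.2) in sub-epidermal miR165a cells. It was 41.4 in all negative, 35.2 in gap, 25.1 in epidermal REV and 12.1 in sub-epidermal REV cells. Neighbouring values in this order outside the domain differed by at most 1.05 on the log2 scale, and none of these steps was listed.

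AT5G39020 encodes a malectin-like receptor kinase, of a family whose members sense the cell wall and growth signals. It reached 450.1 (357.2 to 567.3) in epidermal and 319.6 (253.4 to 403.2) in sub-epidermal miR165a cells, against 134.4 in all negative and 130.7 in gap cells. The lowest levels were those of REV cells, with 69.5 below the epidermis and 48.8 within it.

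PUP7 belongs to the purine permeases, carriers that move purine bases and related compounds such as cytokinins. Its level was 668.6 (535.3 to 835.1) in epidermal and 340.9 (272.2 to 427.0) in sub-epidermal miR165a cells. Next in order came all negative (157.5), gap (106.2), sub-epidermal REV (42.6) and epidermal REV cells (36.1). The pair of REV populations differed by 0.24 ± 0.28 (SE, log2), which is within its error.

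CYP71B22, a cytochrome P450 monooxygenase, had the widest span of the 9 genes as a ratio of its highest to its lowest level. Its level was 2690 (2024 to 3576) in epidermal miR165a, 905.3 (680.1 to 1205) in sub-epidermal miR165a and 431.5 (323.6 to 575.3) in gap cells. All negative cells had 360.7, epidermal REV cells 292.9 and sub-epidermal REV cells 55.2 (40.2 to 75.8). Sub-epidermal REV cells thus stood apart from every other population, while gap, all negative and epidermal REV cells lay close together.

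AT2G18210, annotated only as an uncharacterized protein, stood at 134.2 (104.0 to 173.0) in epidermal and 68.5 (52.5 to 89.4) in sub-epidermal miR165a cells. All negative cells had 30.8, gap cells 28.0, sub-epidermal REV cells 13.8 and epidermal REV cells 13.4. HR4, a homolog of the RPW8 resistance proteins against powdery mildew, was the only higher gene whose level was larger below the epidermis, with 72.1 (49.0 to 106.3) in sub-epidermal and 54.7 (36.7 to 81.5) in epidermal miR165a cells. The difference between these values, 0.40 ± 0.41 (SE, log2), did not exceed its error. The other populations had 25.7 (all negative), 15.8 (gap), 8.93 (sub-epidermal REV) and 8.55 (epidermal REV).

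The 3 lower genes had their smallest values in both miR165a populations. AT5G43870 encodes an auxin canalization protein of the FORKED family, which acts in leaf vein patterning. Its level was 14.9 (10.6 to 20.9) in sub-epidermal and 20.2 (14.5 to 28.2) in epidermal miR165a cells, against 58.9 in all negative, 87.4 in gap, 109.6 in sub-epidermal REV and 164.3 in epidermal REV cells. AT1G49475, a B3 domain transcription factor, had low values in the domain, with 2.12 (1.12 to 3.99) in sub-epidermal and 4.30 (2.47 to 7.50) in epidermal miR165a cells. It stood at 10.8 in all negative, 26.6 in sub-epidermal REV, 32.0 in gap and 88.5 (69.2 to 113.2) in epidermal REV cells.

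AT4G24050, a short-chain dehydrogenase with a Rossmann fold, showed a step at the edge of the domain and nearly flat values outside it. Its level was 48.9 in sub-epidermal and 79.8 in epidermal miR165a cells. The other populations spanned 163.9 (epidermal REV), 185.2 (gap), 193.2 (all negative) and 207.1 (sub-epidermal REV). It was listed in none of the contrasts outside the 8 that chose it, so that no interval could be solved for single populations.

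**Figure D1:**
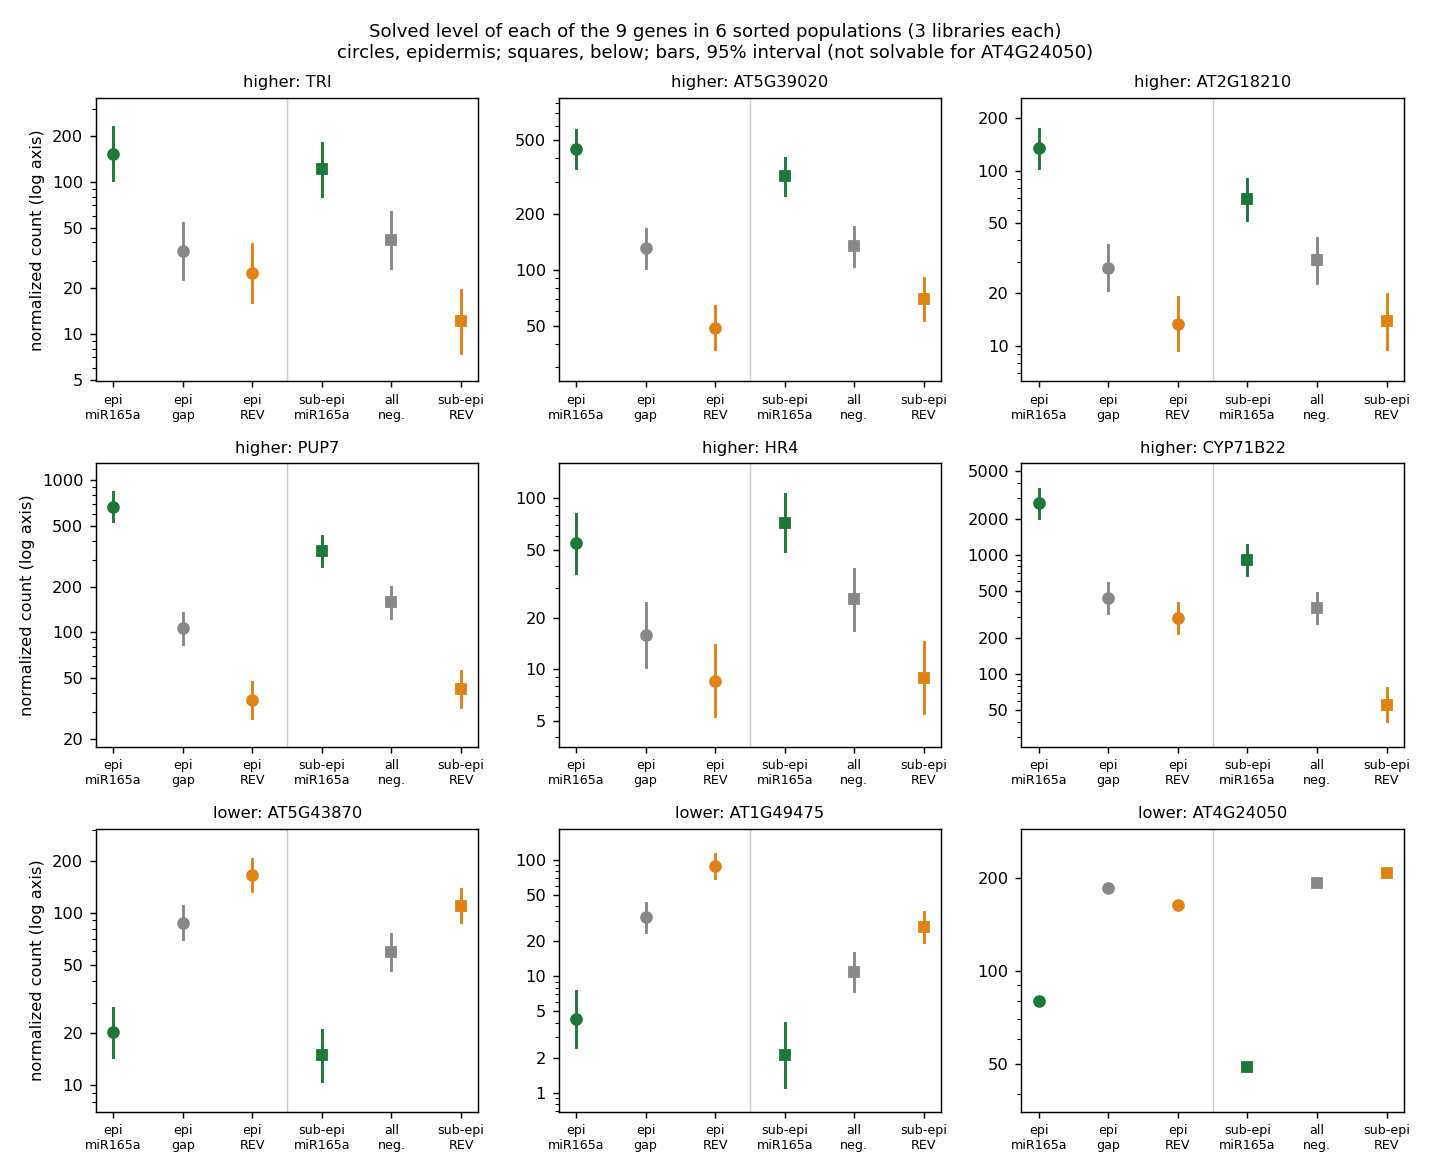
Solved level of each gene (y, normalized count, log axis) in the 6 sorted populations (x), with circles for the epidermis, squares for cells below it and bars for 95% intervals. The 6 upper genes peak in both miR165a populations and run down to REV cells, as PUP7 does from 668.6 to 36.1, and the 3 lower genes have their minimum in both miR165a populations, as AT5G43870 does with 20.2 and 14.9.

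The rule held for few genes. All 9 genes passed the tables' limits, an adjusted p of at most 0.05 and an absolute log2 fold change of at least 1, in each of the 8 contrasts. Among the 20703 genes tested, 9 (0.0435%) were higher and 3 (0.0145%) were lower in all 8. The higher ones include 3 that are no members here: YAB2 (AT1G08465), an abaxial YABBY factor, AT1G23090, a sulfate transporter, and AT2G29340, which lies beside TRI. The nearest outside the limits were 36 further genes listed higher and 14 listed lower in 7 of the 8. Just inside, the smallest log2 fold changes were 1.07 for CYP71B22 (sub-epidermal miR165a against gap), 1.09 for HR4 (epidermal miR165a against all negative), and 1.04 in absolute size for AT4G24050 (epidermal miR165a against epidermal REV).

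The size of the contrast depended on the population it was set against. Across the higher genes the median log2 fold change of epidermal miR165a cells was 3.20 against epidermal REV, 3.47 against sub-epidermal REV, 2.19 against gap and 1.99 against all negative cells. For sub-epidermal miR165a cells these medians were 2.53, 3.01, 1.49 and 1.29 in the same order. The largest single value was that of CYP71B22 in epidermal miR165a against sub-epidermal REV cells, at 5.61, and the most negative was that of AT1G49475 in sub-epidermal miR165a against epidermal REV cells, at -5.39. Immunity and wounding genes moved with part of these contrasts. Of 10 such genes, 6 were listed higher in epidermal miR165a than epidermal REV cells and 4 higher than in gap cells. Below the epidermis 1 was listed higher than in REV cells and 0 than in all negative cells. In the same order, 17.3%, 5.79%, 9.74% and 2.07% of all genes tested were listed in either direction. Across layers, sub-epidermal miR165a cells had 7 higher than epidermal REV (23.9% of all genes listed) and 4 higher than gap cells (14.8%). Epidermal miR165a cells had 3 higher and 1 lower than sub-epidermal REV (14.4%) and 1 higher than all negative cells (11.4%). The summed level of the 7 with solved values was 29430 in epidermal miR165a, 8764 in gap and 4408 in epidermal REV cells. It was 18831 to 21204 in the 3 populations below. VSP2 (13877), VSP1 (6995) and the heat shock gene HSP101 (6288) made up most of the sum in epidermal miR165a cells. EDS1 (1057 against 1611), PAD4 (399.8 against 565.5) and SARD1 (497.2 against 1253) were lower there than in sub-epidermal miR165a cells. CBP60G (316.8 against 321.8) and HSP101 were nearly level, and VSP1 and VSP2 were higher. The part of the immunity and wounding genes in the values of HR4 and the other higher genes was not tested.

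The miR165a populations were compared with each other to see whether the genes differed between layers. The contrast between them was not itself used in the selection, although its libraries were, and 1 of the 9 genes was listed. CYP71B22 was lower below the epidermis by -1.57 ± 0.30 (SE, log2; adjusted p = 2.16e-06, DESeq2), where 4.85% of the genes tested were listed in that direction. PUP7 (-0.97 ± 0.23) and AT2G18210 (-0.97 ± 0.27) had intervals below 0 and did not reach the fold change limit of 1. For TRI (-0.34 ± 0.42), HR4 (0.40 ± 0.41), AT5G43870 (-0.44 ± 0.35) and AT1G49475 (-1.02 ± 0.62), the difference was within its 95% interval of 0. AT5G39020 had -0.49 ± 0.24, with an interval that ended just below 0. The median difference was -0.73 over the higher and -0.71 over the lower genes, against 0.10 over the 3832 genes with solved levels. Those 3832 are genes listed in enough contrasts to link all populations, and not all genes tested.

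REV cells were compared with marker-free cells of the same layer to ask how the genes behave where no miR165a population is involved. The REV and marker-free libraries also entered the contrasts that chose the genes. Each difference here equals a difference of fold changes used there. The p-values and the shares of all genes do not allow for that selection. In the epidermis, 3 of the 6 higher genes were listed lower in REV than in gap cells. They were PUP7 (-1.55 ± 0.27, adjusted p = 3.41e-07, DESeq2), AT5G39020 (-1.42 ± 0.26, adjusted p = 3.15e-06) and AT2G18210 (-1.06 ± 0.34, adjusted p = 0.0166), against 5.12% of all genes tested. AT1G49475 was the only lower gene listed higher, at 1.47 ± 0.27 (adjusted p = 2.54e-06), against 1.49% of all genes tested. AT5G43870 had 0.91 ± 0.23, below the fold change limit, and HR4 (-0.88 ± 0.47), CYP71B22 (-0.56 ± 0.30) and TRI (-0.49 ± 0.45) were not listed. In the table of a fit on these 2 populations alone, AT2G18210 was no longer listed, which left 2 of the 6 higher genes (PUP7 and AT5G39020) beside AT1G49475. Of the 10 immunity and wounding genes 3, and of the 7 abaxial genes 6, were listed lower in the same contrast.

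Below the epidermis, 5 of the 6 higher genes were listed lower in REV than in all negative cells, against 3.45% of all genes tested. CYP71B22 differed most (-2.71 ± 0.32, adjusted p = 2.25e-15, DESeq2), followed by PUP7 (-1.89 ± 0.26, adjusted p = 8.84e-11). TRI (-1.78 ± 0.47), HR4 (-1.52 ± 0.47) and AT2G18210 (-1.16 ± 0.34) had adjusted p of 0.00239, 0.0123 and 0.00863. AT5G39020 had -0.95 ± 0.26 and missed the fold change limit. AT1G49475 was listed higher (1.29 ± 0.35, adjusted p = 0.00354), against 3.37% of all genes tested, and AT5G43870 had 0.90 ± 0.24. In the table of a fit on these 2 populations alone, 3 genes stayed listed (TRI, PUP7 and CYP71B22) in place of 6. The vascular transcripts given above, PXY and SUC2 among them, differ between the same populations. In this contrast 6 of 7 abaxial genes were listed lower and 8 of 9 class III HD-ZIP and ZPR genes higher. The part of all these genes in the values was not tested.

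Each of the 6 higher genes thus had a lower value in REV than in marker-free cells of either layer, as a point estimate. That the marker-free cells lay below the miR165a cells was fixed by the selection. The median log2 difference of REV against marker-free cells was -0.97 in the epidermis and -1.65 below it over the higher genes, against -0.54 and -0.14 over all genes with solved levels.

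**Figure D2:**
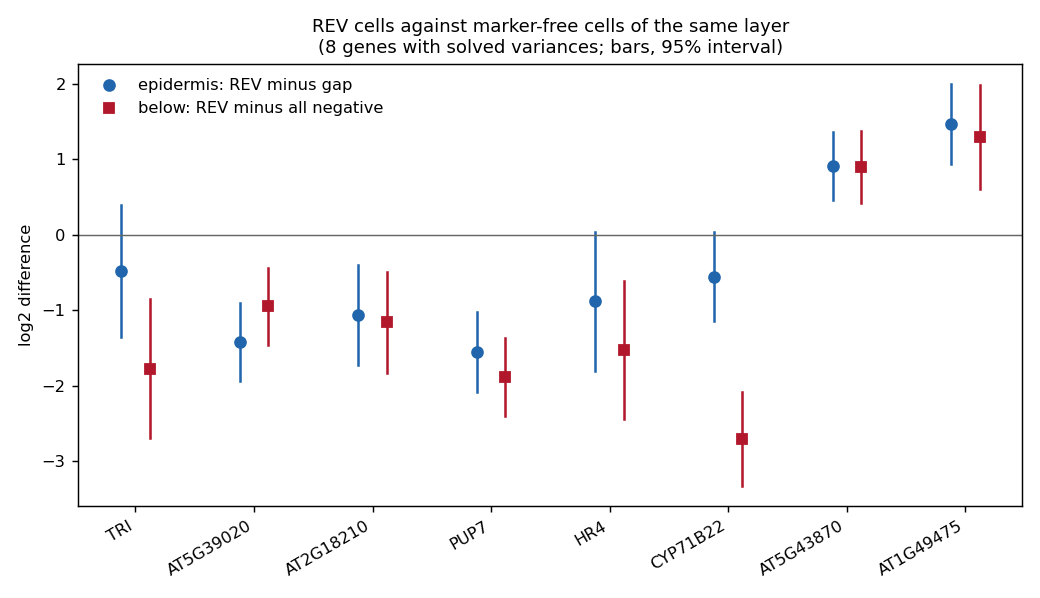
Log2 difference between REV and marker-free cells (y) for 8 genes (x), in the epidermis (circles, REV minus gap) and below it (squares, REV minus all negative), with 95% intervals. CYP71B22 has -0.56 in the epidermis and -2.71 below it with intervals that do not overlap, and the pairs of AT5G43870, 0.91 and 0.90, coincide.

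The difference between the layers in this REV effect was tested with a z test on the solved values, adjusted over the 1732 genes whose standard errors could be solved. The REV effect of CYP71B22 was smaller in the epidermis by 2.15 ± 0.44 (SE, log2; adjusted p = 1.08e-05, from the DESeq2 estimates). It was 1 of 8 genes called, where 34.2% of the 1732 genes were called, so that the count is below the share in that set. Standard errors could be solved only for genes listed in enough contrasts. The set therefore leaves out most genes, and its share is not one over all genes. TRI had a difference of 1.29 ± 0.65 (adjusted p = 0.110, likewise from the DESeq2 estimates). For PUP7 (95% interval -0.40 to 1.07), AT2G18210 (-0.85 to 1.04), AT5G43870 (-0.64 to 0.66), AT1G49475 (-0.69 to 1.05), AT5G39020 (-1.20 to 0.26) and HR4 (-0.66 to 1.94), the interval of the difference included 0.

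The marker-free populations of the layers were then set against each other. Among the 9 genes, only AT1G49475 was listed, higher in gap than in all negative cells by 1.56 ± 0.34 (adjusted p = 5.02e-05, DESeq2), against 5.98% of all genes tested. The higher genes lay between -0.70 ± 0.44 (HR4) and 0.26 ± 0.30 (CYP71B22), and their median of -0.19 compares with -0.73 over the genes with solved levels. AT5G39020 differed by -0.04 ± 0.25, so that its marker-free levels agree within their error.

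Between the REV populations, 2 genes were listed lower below the epidermis, against 5.1% of all genes tested. CYP71B22 differed by -2.41 ± 0.32 (adjusted p = 5.71e-13, DESeq2) and AT1G49475 by -1.74 ± 0.28 (adjusted p = 1.04e-08). TRI had -1.05 ± 0.47 and was not listed. AT2G18210 (0.04 ± 0.37), HR4 (0.06 ± 0.50), PUP7 (0.24 ± 0.28) and AT5G39020 (0.51 ± 0.27) had intervals that included 0, while the median of all solved genes was 1.12. AT5G43870 had -0.58 ± 0.23 (95% interval -1.03 to -0.14) and was not listed. In the same contrast 4 of 5 vascular and 7 of 10 immunity and wounding genes were listed higher below the epidermis, against 2693 of 20703 genes tested. All 4 epidermal genes were listed lower, and the part of these genes in the values was not tested.

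Across layers, epidermal REV cells were lower than all negative cells in PUP7 (-2.12 ± 0.26, adjusted p = 1.92e-14, DESeq2), HR4 (-1.59 ± 0.46, adjusted p = 0.00210), AT5G39020 (-1.46 ± 0.26) and AT2G18210 (-1.21 ± 0.34). These are 4 of 6 higher genes, against 15.4% of all genes tested, and their group median of -1.33 is near the -1.50 of all solved genes. AT1G49475 was higher by 3.03 ± 0.33 (adjusted p = 6.46e-19) and AT5G43870 by 1.48 ± 0.24 (adjusted p = 3.56e-09), against 8.68% of all genes tested. Of the 10 immunity and wounding genes, 7 were listed lower and 1 higher in the same contrast. Of the 7 abaxial genes, 6 were listed lower and 0 higher. The part of these genes in the values was not tested.

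In sub-epidermal REV against gap cells, 4 of the 6 higher genes were listed lower, against 5.58% of all genes tested. CYP71B22 differed by -2.97 ± 0.32 (adjusted p = 2.61e-19, DESeq2), TRI by -1.54 ± 0.47, PUP7 by -1.32 ± 0.27 and AT2G18210 by -1.02 ± 0.34. None of the lower genes was listed. In the same contrast 4 of 5 vascular and 4 of 10 immunity and wounding genes were listed higher in the REV cells, against 1642 of 22074 genes tested. All 4 epidermal genes and 6 of 7 abaxial genes were listed lower, and the part of these genes was not tested. AT4G24050 was absent from all 7 of these tables, with differences from -0.71 (between the miR165a populations) to 0.34 (between the REV populations). These contrasts share libraries with each other and with the contrasts that chose the genes. They are not independent of one another or of the selection.

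**Figure D3:**
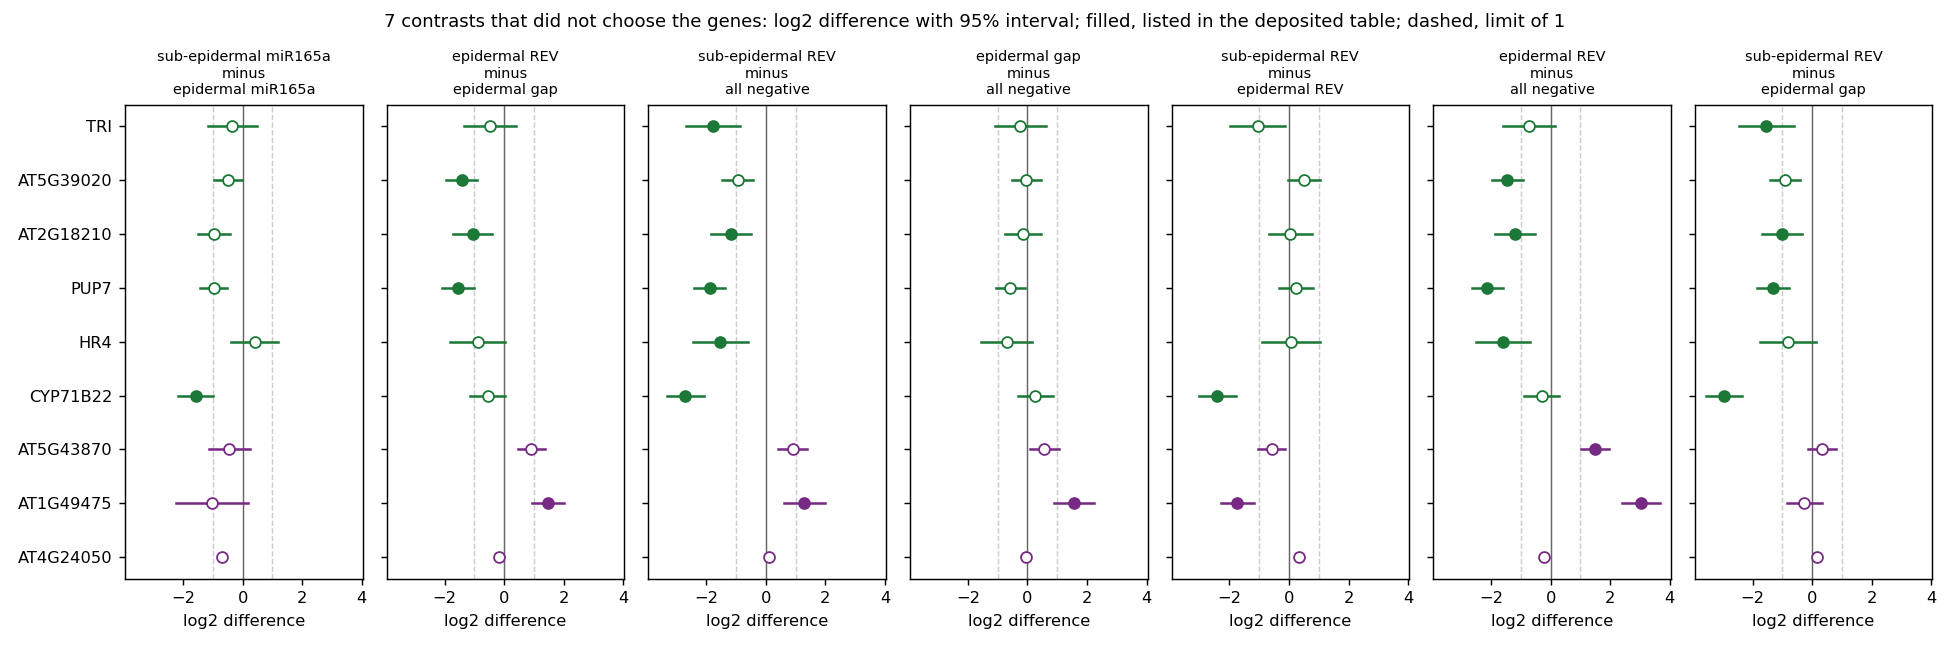
Log2 difference (x, with 95% intervals) of the 9 genes (y) in the 7 contrasts that were not themselves used in the selection. Filled circles are genes listed in the deposited table, and dashed lines mark the limit of 1. The higher genes (green) lie left of 0 wherever REV is set against marker-free cells, CYP71B22 reaches -2.97, and AT1G49475 (purple) reaches 3.03 in epidermal REV against all negative cells.

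The nearest proteins of the 9 genes, at most 5 each, were looked up in the same tables. Of the 22 near proteins of the higher genes, 14 were listed higher in at least 1 of the 8 contrasts, 1 of these also lower in another, and 8 were in no table. Of all 27422 proteins of the reference, 17.3% were listed higher in at least 1 of the 8. Of the 12 near proteins of the lower genes, 8 were listed lower at least once (15.3% of all proteins), 4 were listed higher at least once and 3 were in no table. In TAIR10.1, TRI lies on chromosome 2 from 12594536 to 12596438, and the next gene, AT2G29340, starts 579 bases further on the same strand. Its protein is 79.6% identical to that of TRI. AT2G29340 was listed higher in all 8 contrasts, with 1429 normalized counts in epidermal and 1164 in sub-epidermal miR165a cells against 90.3 to 389.4 elsewhere. AT2G29320, on the other side of TRI at 732 bases, was listed higher in 5 of the 8, with 62.0 in sub-epidermal and 32.1 in epidermal miR165a cells. Its all negative cells, at 38.5, were above the latter. AT2G29310 was listed higher in 3, while the nearest protein of TRI, that of AT2G30670 (80.8% identical), and AT2G29300 were in no table.

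PUP7 lies on chromosome 4 from 10071481 to 10073557 among other purine permease genes. Its nearest protein, that of AT4G18205 (88.0% identical), was listed higher in 6 of the 8, with 553.7 in epidermal and 142.2 in sub-epidermal miR165a cells. PUP8, 365 bases before PUP7, was listed in 6, AT4G18220 in 7 and PUP10 in 4 of the 8, all as higher. These relatives peaked in epidermal miR165a cells, PUP8 at 125.7, AT4G18220 at 154.3 and PUP10 at 62.7. PUP6 was in no table.

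AT5G39020 lies on chromosome 5 from 15616770 to 15619446. Its closest relative AT5G39030 (71.0% identical) was listed higher in 7 of the 8, with 78.3 in epidermal and 28.7 in sub-epidermal miR165a cells and at most 14.1 elsewhere. AT5G38990 (47.7% identical) was listed in 4, AT5G38250 in 5 and AT5G38260 in 3, all as higher, and AT5G39000 (49.9% identical) was in no table. AT5G39010 and AT5G39024, the genes on either side of AT5G39020, were in no table. HR3, the annotated gene before HR4 on chromosome 3 and another RPW8 homolog, was listed higher in 5 of the 8, with 46.7 in sub-epidermal and 17.7 in epidermal miR165a cells.

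Relatives of the other genes were listed in part of the 8 contrasts. CYP71B21, the nearest protein to CYP71B22 (88.8% identical) and its neighbour on chromosome 3, was listed higher in 3 of the 8, and CYP71B23, on its other side, in 2. CYP71B5 (75.0% identical) was listed higher in 3 and lower in 2, and had 1209 in epidermal and 121.1 in sub-epidermal miR165a cells. CYP71B38, CYP71B31 and CYP71B8 were in no table. The nearest protein of AT2G18210, that of AT4G36500 (76.8% identical), was listed higher in 1, and AT2G18200 was in no table. Of the FORKED relatives of AT5G43870, FKD1 was listed lower in 3, AT3G22810 in 2 and AT4G32780 in 2, while AT4G16670 was listed higher in 2 and AT4G14740 was in no table. FKD1 was highest in sub-epidermal REV cells (581.4). For AT1G49475, AT4G01580 was listed higher in 2 and lower in 1, and AT3G18960 was in no table. For AT4G24050 the nearest protein, AT1G64590, was in no table, and AT5G02540 was listed lower in 5 and higher in 1. AT2G37540 was listed lower in 3 and higher in 2, and AT5G50130 and Tic32-IVa lower in 2 each. Reads that match more than one copy may be split between relatives or dropped by the counting, so the values of TRI, PUP7, CYP71B22 and their relatives are uncertain to that extent. The library kit does not mark strand, and PUP7 and AT5G43870 each overlap a gene on the other strand (AT4G18203 and CLH2), whose reads cannot be told apart from theirs. CLH2 had a mean normalized count of 1.29 of its own against 75.9 for AT5G43870, and AT4G18203 was in no table.

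**Figure D4:**
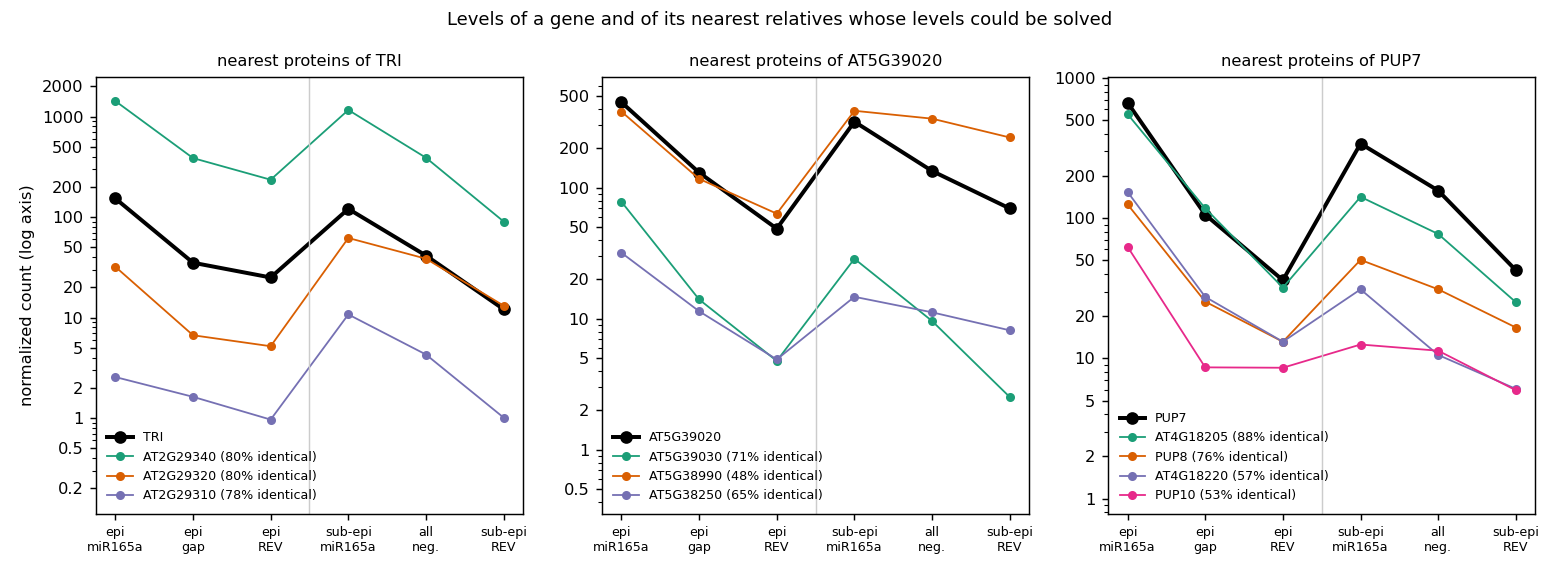
Level (y, normalized count, log axis) of TRI, AT5G39020 and PUP7 (black) and of their relatives with solved levels (colours, with protein identity) in the 6 populations (x). The relatives mostly peak in a miR165a population, as AT2G29340 does at 1429, and AT5G38990 differs by staying at 242.3 in sub-epidermal REV cells.

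Genes with the most similar profile were sought among 2234 genes with all 6 levels solved and a mean normalized count of at least 50, by the distance between centred log2 levels over the 6 populations. For the higher genes they were AT3G53310, a B3 domain factor, at a distance of 0.69, AT4G23250, a cysteine-rich receptor kinase, at 0.71, and AT2G29340 at 0.74. The higher genes themselves lay 0.50 to 1.66 from their mean. For the lower genes they were AT1G04150, a C2 domain protein, ROXY1 (AT3G02000), a glutaredoxin that acts in petal development, and AT4G31620, a B3 domain factor, at 1.03, 1.03 and 1.05.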

How the data were processed

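RNA-seq libraries of 18 sorted protoplast samples (3 in each of 6 populations, called biological replicates in the study's methods) were processed by the authors with FastQC, cutadapt, TopHat and HTSeq on TAIR10, and tested with DESeq2, versions not given in the sources used here. The 19 deposited tables list only genes with an adjusted p-value of at most 0.05 and an absolute log2 fold change of at least 1. Each gives the deposited mean normalized count (a signal over libraries), log2 fold change with its standard error, Wald score and p-value. Because they hold no library values, the spread between libraries enters only through the standard errors. These comparison columns of the authors are the data described. The study's methods give the number of reads only as a range over samples of both of its RNA-seq experiments. The depth of each single library is therefore unknown here. 15 tables come from a fit on 6 populations (used here) and 4 from fits on 2 populations.

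The number of genes tested (20703 or 22074) was recovered from p-value ranks. Levels were solved by least squares from fold changes and mean counts, and variances from the squared standard errors, for 3832 and 1732 genes. Both sets hold only genes listed in enough contrasts, so their medians and shares are not those of all genes tested. Fold changes were met to within 4.17e-14 and standard errors to within 0.0099, and 24 mean counts of the fits on 2 populations were 0.89 to 1.03 times the solved ones. The z test was run on values simulated with the solved standard errors, and the solution on made-up values without noise. These runs check the calculation and cannot show whether the deposited standard errors are right. Intervals are 95% normal intervals. Proteins were translated from the reference TAIR10.1 and compared with blastp 2.17.0 (E of at most 1e-20, 5 nearest). Python 3.11.15, numpy 2.4.6, pandas 2.3.3 and scipy 1.17.1 were used. The members, the gene lists and the tests were chosen with earlier results of these data known. Named by rule besides the members were those of their 5 nearest proteins and of the genes on either side that were listed in a table, and the 3 genes nearest in profile to each group.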

Additional observations from a re-analysis of the deposited data

Results flagged for a closer look

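CYP71B22 (AT3G26200) differed between the layers in the effect of REV against marker-free cells. The effect was -0.56 on the log2 scale in the epidermis and -2.71 below it, a difference of 2.15 (SE 0.44, adjusted p = 1.08e-05, z test over 1732 genes on values fitted with DESeq2). With standard errors 1.5 times as large the adjusted p was 0.0133 in the same DESeq2-based fit. The median difference over the 1732 genes was -0.42, and 592 of them were called. Each population had 3 libraries, without values for single libraries, so a library that stands apart could not be looked for.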

How the results depend on the processing

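A log2 fold change limit of 2 left 0 genes listed in all 8 selecting contrasts, 0 between the miR165a populations, 0 in REV against gap cells of the epidermis and 0 between the marker-free populations. It left 1 in sub-epidermal REV against all negative cells, 1 between the REV populations, 1 in sub-epidermal REV against gap cells (each CYP71B22) and 2 in epidermal REV against all negative cells (PUP7 and AT1G49475). A mean normalized count of at least 50 left 2 genes in REV against gap cells of the epidermis, 3 in sub-epidermal REV against all negative cells, 0 between the marker-free populations, 1 between the REV populations and 3 in epidermal REV against all negative cells. It removed AT2G18210, HR4 and AT1G49475 by construction. The fit on the populations of sub-epidermal REV and all negative cells alone listed 3 genes in place of 6, and the cause was not tested. In the fit on epidermal REV and gap cells alone 3 genes were listed in place of 4, without AT2G18210. An adjusted p limit of 0.01 moved no count of genes by more than 1.5 times. The mean counts of the fits on 2 populations moved no mean of 2 levels beyond its error. These fits share their libraries with the fit on 6, so that closeness of the means was largely fixed in advance. Such means do not check the level of a single population. For AT1G49475, sub-epidermal miR165a against sub-epidermal REV cells had -4.67 ± 0.92 (SE, log2) in the fit on 2 and -3.65 ± 0.52 in the fit on 6. Fold changes solved from the other tables are equal to the listed ones by construction and bear on no result. With the limit of 0.01, 6 of the 9 genes were listed in all 8 selecting contrasts (without TRI, HR4 and AT1G49475). The z test called 592 of 1732 genes, 214 with standard errors 1.5 times as large, and CYP71B22 alone among the 9 in both and with mean counts of at least 50. Apart from the fits on 2 populations, these alternatives leave every fold change as it is and could not turn a direction. Every member listed in a table of a fit on 2 populations had the direction of the fit on 6.

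No paired analysis was possible because the tables hold no values for single libraries, and for the same reason leaving out replicates was not run. The depth of each single library is unknown, so that low values, such as those of AT1G49475 in the miR165a domain, carry the precision of their standard errors only.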
